A study of Mus musculus with 12 samples.

Results

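Epididymal white adipose tissue (eWAT) of mice given Taeeumjowuitang (TJ) in a high-fat diet (HFD) was compared with eWAT of mice given a normal diet (ND), which asks what still differed from the lean state under TJ. Genes were taken where the mean level over the 3 TJ and 3 ND libraries was at least 1 FPKM, a unit that divides the fragments of a gene by its transcript length and by the mapped fragments of the library. Of the 23474 genes in the table, 14251 met this rule. TJ is a Korean herbal medicine made of plant extracts in water, and it was mixed at 3% (w/w) into the HFD of the TJ group, while the ND group received neither the HFD nor TJ. The 2 groups therefore differed in diet and in TJ at once, and the parts of the diet and of TJ in a difference cannot be told apart. An HFD group without TJ is given beside them, and a 4th group, which received green tea extract (GT) at 0.25% (w/w) in the HFD, entered only some estimates of the spread. All mice were male C57BL/6J, were housed singly, began their diets at 5 weeks of age in groups of 10 and were 17 weeks old after 12 weeks of feeding. The methods give 3 randomly chosen mice for the TJ and for the HFD libraries and do not say how the ND libraries were chosen, so the p-values measure the spread between these libraries.

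White adipose tissue stores triglyceride in adipocytes, which take up glucose and fatty acids in response to insulin, release fatty acids in response to catecholamines and secrete adipokines such as adiponectin and leptin. Between the adipocytes lie blood vessels, stromal progenitors and macrophages. In obese mice the fat pad beside the epididymis gains macrophages that surround dying adipocytes, take up their lipid and express lysosomal and lipid-handling genes. The pad lies against the testis and the epididymis and is covered by mesothelium, so pieces of these tissues can enter a sample.

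The ND libraries were unlike each other, and ND replicate 1 carried much RNA of testis and epididymis. The summed level of 20 testis germ cell markers was 107691, 206 and 3644 FPKM in ND replicates 1 to 3, against 12.1, 13 and 3.17 FPKM in TJ replicates 1 to 3 and 2376, 54 and 39.8 FPKM in HFD replicates 1 to 3. The summed level of 19 epididymis markers was 29116, 14.3 and 63.6 FPKM in the ND, 13.3, 21.2 and 5.18 FPKM in the TJ and 25, 1658 and 1.39 FPKM in the HFD libraries. ND replicate 1 thus carried far more of both, and ND replicate 3 carried more germ cell RNA than ND replicate 2. Of the HFD libraries, replicate 1 was high in the germ cell markers and replicate 2 in the epididymis markers, and the part of this in the HFD values given below was not tested. The 14 adipocyte markers summed to 7322, 37287 and 26098 FPKM in the ND libraries and to 39856, 71379.5 and 32037 FPKM in the TJ libraries, and ND replicate 1 was the lowest of these libraries by far. Spearman's rho over the tested genes was 0.263 between ND replicates 1 and 2, 0.511 between 1 and 3 and 0.858 between 2 and 3. It was 0.957 to 0.990 among the TJ libraries. Mesothelial markers, 10 in number, summed to 273, 38.3 and 116 FPKM in the ND libraries and 5.48, 23.5 and 9.62 FPKM in the TJ libraries. The results below are therefore given with ND replicates 2 and 3, beside the value of each ND library for the leading genes. Depth, estimated from the smallest steps of the FPKM values, was 10.0M to 16.3M fragments in the ND libraries and 16.3M to 17.4M in the TJ libraries.

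**Figure D1:**
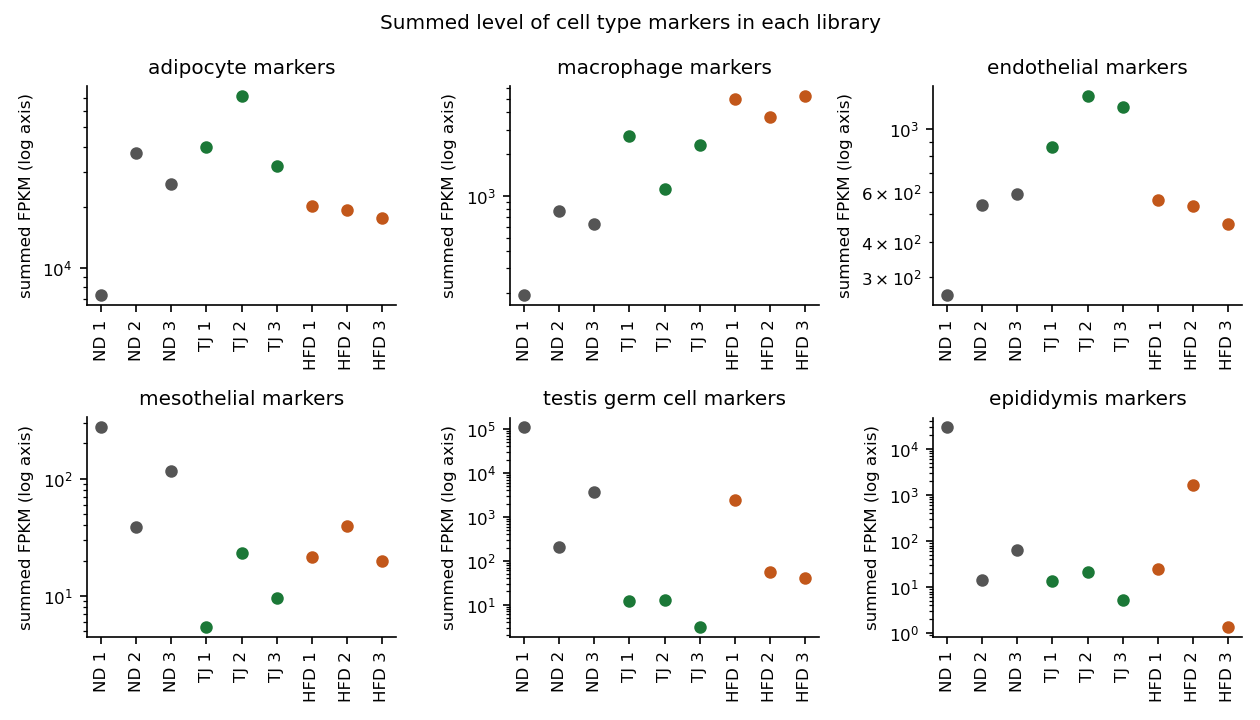
Summed FPKM of 6 lists of cell type markers (log axes) in each ND, TJ and HFD library, 1 point per library. ND replicate 1 stands apart in all 6 lists, with the highest mesothelial, testis and epididymis sums and the lowest adipocyte, macrophage and endothelial sums, while the 3 TJ libraries lie above all ND libraries for the macrophage and endothelial markers and overlap with ND replicates 2 and 3 for the adipocyte markers.

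With only the libraries of the 2 groups in the test, no gene was called. A gene was called when limma on log2(FPKM + 1) gave a Benjamini-Hochberg adjusted p-value under 0.05 over all 14251 genes and a fold change of at least 1.5. On all 6 libraries 0 genes were called higher and 0 lower in TJ (0% of the genes tested), 1532 genes had an unadjusted p-value under 0.05, and the smallest limma adjusted p-value was 0.446. With ND replicates 2 and 3 the counts were again 0 and 0 (0%), with 3070 genes under an unadjusted 0.05 and a smallest limma adjusted p-value of 0.134. These counts of 0 depended on single ND libraries: without ND replicate 2 the fit on the other 5 libraries called 20 genes higher and 1106 lower, and with a single ND library, assumed to vary like the TJ libraries, 194 and 2308 genes were called against ND replicate 3 and 21 and 264 against ND replicate 2. The 3 TJ values all lay above the 3 ND values for 1784 genes (12.5%) and all below for 1938 genes (13.6%). Against ND replicates 2 and 3 alone these counts were 2967 genes (20.8%) and 3880 genes (27.2%). An exact permutation test of 3 libraries against 3 cannot give a two-sided p-value below 0.1.

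Calls appeared when the spread was estimated with the HFD and GT libraries as well, which assumes that ND libraries vary like the other groups. ND replicates 2 and 3 were less alike (Spearman's rho 0.858) than the TJ libraries (0.957 to 0.990). The adjusted p-values of these fits, here and below, may therefore be too small. With all 12 libraries in the limma fit, 18 genes were called higher (0.126%) and 3 lower (0.0211%) in TJ than in ND. Without ND replicate 1, the 11-library fit called 1174 genes higher (8.24%) and 884 lower (6.20%), with a smallest limma adjusted p-value of 6.87e-05. All 21 genes of the 12-library fit were among them. These counts depended on single libraries. Without ND replicate 3 they fell to 207 higher and 66 lower, and without TJ replicate 1 to 262 and 76. Without ND replicate 2 they were 1159 higher and 3536 lower, without TJ replicate 2 they were 1232 and 536, and without TJ replicate 3 they were 1335 and 1401. A set of 120 genes was called higher (0.842%) and 38 were called lower (0.267%) in the 11-library fit and also in each of the 5 fits that left out 1 ND or TJ library. Of these, 88 of the higher and 11 of the lower genes also had TJ and ND values that did not overlap over all 6 libraries. Below, "called" refers to the 11-library fit, fold changes are TJ over the mean of ND replicates 2 and 3 on the log2(FPKM + 1) scale unless another is named, and a held call is one of these 120 or 38 genes. The pseudocount of 1 makes these fold changes understate the change of genes at a few FPKM. The fold changes of the HFD group rest on the same ND libraries and are given only side by side.

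**Figure D2:**
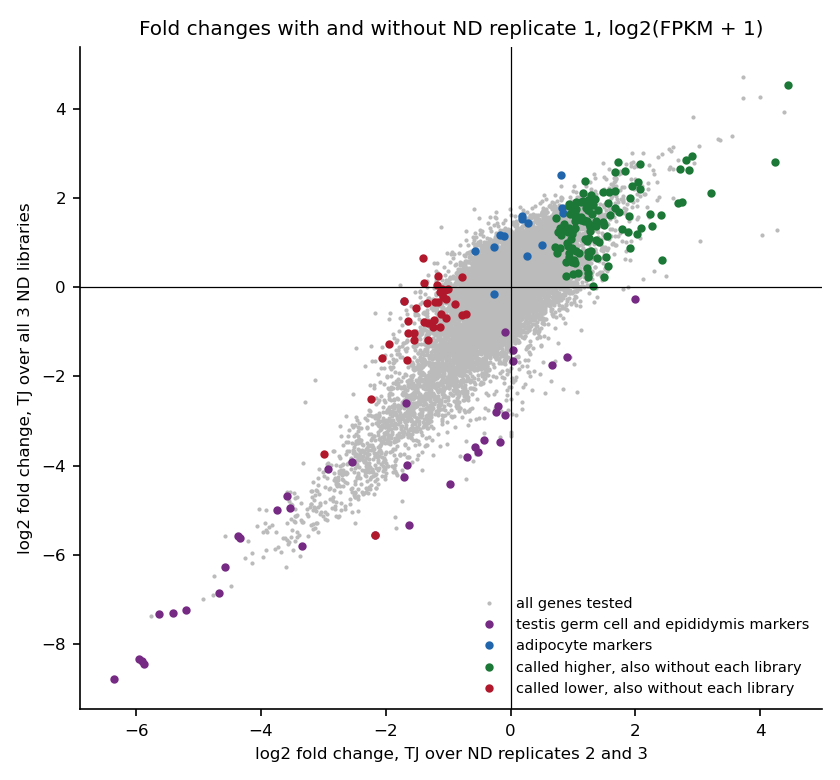
Log2 fold change of TJ over ND replicates 2 and 3 (x axis) against that over all 3 ND libraries (y axis), 1 point per gene tested, on log2(FPKM + 1). Most of the testis and epididymis markers lie far below 0 on the y axis, adipocyte markers move up when ND replicate 1 is included, and the 120 held higher calls stay above 0 on both axes while several of the 38 held lower calls lie near or above 0 on the y axis.

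In all 21 genes called in the 12-library fit the TJ and ND values did not overlap over the 6 libraries. This lack of overlap rests on the same values as the call and is no separate support. Of the 21 genes, 18 were held calls, Tyrobp, Ubd and Pde1a being the others. Saa3, an acute-phase serum amyloid A that fat tissue makes in inflammation (ENSMUSG00000040026, chr7:46711998-46715700, GRCm38), had 2.73, 4.25 and 2.96 FPKM in the ND libraries and 147, 36.5 and 177 FPKM in the TJ libraries. The lowest TJ library lay above the highest ND library, and TJ replicate 2 stood well below the other TJ libraries. Its log2 fold change was 4.45 ± 0.61 (SE), with a limma adjusted p-value of 0.00727 in the 11-library fit and 0.0171 in the 12-library fit. The HFD libraries held 89.3 to 102 FPKM. The other genes called higher there included Ubd, Lrg1, Tyrobp, Tcf15, Grrp1, Bst2, Cela1, Ebpl, Gngt2, Tmem88, Grasp, Pcbd2, Gm20547, 1700047I17Rik2, B430218F22Rik and ENSMUSG00000097070, and the lower ones were Aak1, Pde1a and Gm17611. Lrg1, a leucine-rich glycoprotein secreted in inflammation, had 41.9, 40.3 and 80.4 FPKM in the ND and 258, 166 and 333 FPKM in the TJ libraries, a log2 fold change of 2.07. Ubd, a ubiquitin-like protein induced by inflammatory cytokines, had 1.43, 8.25 and 4.8 FPKM and 177, 33.9 and 145 FPKM in the same order, a log2 fold change of 3.72. For all 3 of these genes the groups did not overlap. Gm20547 spans the neighbouring complement genes C2 and Cfb on chromosome 17, and its reads cannot be told from theirs, so its level is uncertain.

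A part of the macrophage genes was higher in TJ than in ND, with larger fold changes over ND in HFD. Among 20 genes of lipid-associated macrophages, 12 were called higher and 0 lower, with a median log2 fold change of 1.38 beside -0.12 over all genes tested. Of these 12, 1 was a held call, and without ND replicate 3 only 1 member was called. In the HFD group the median of the same genes over ND replicates 2 and 3 was 3.41. Among 14 macrophage markers, 6 were called higher and 1 lower, with a median of 1.21 in TJ and 2.57 in HFD, and none of these was a held call or was called without ND replicate 3. In bulk tissue, more cells of a type and more RNA per cell cannot be told apart.

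Trem2, the lipid receptor that marks these macrophages, had 7.58, 2.3 and 2.61 FPKM in the ND libraries, 158, 20 and 110.4 FPKM in the TJ libraries and 338, 232 and 365 FPKM in the HFD libraries. TJ replicate 2 lay closest to the ND libraries, and no TJ library reached the lowest HFD library. Over ND the log2 fold change was 4.38 ± 0.80 (SE), with a limma adjusted p-value of 0.0152. Gpnmb, a glycoprotein of lipid-loaded macrophages, followed the same order with 2.32, 3.75 and 6.01 FPKM, 284, 13.8 and 186 FPKM and 874, 699 and 958 FPKM. Mmp12, the macrophage elastase, had 0.0959, 9.7 and 5.95 FPKM in the ND and 301, 19.5 and 239 FPKM in the TJ libraries, a log2 fold change of 3.72. In each of these genes TJ replicates 1 and 3 were several times higher than TJ replicate 2. Tyrobp, the adaptor through which Trem2 signals, was the member of this list that was called also with all 12 libraries, at 24.4, 35.5 and 28.7 FPKM in the ND and 294, 109 and 213 FPKM in the TJ libraries. Atp6v0d2, Lgals3, Itgax, Plin2, Ctsd, Cd63 and Acp5 were also called higher, with log2 fold changes from 0.68 (Acp5) to 3.54 (Atp6v0d2). Spp1 (1.43), Ctsk (2.12), Lipa (1.33), Msr1 (1.04), Ctsl (0.97) and Cd9 (0.93) had positive log2 fold changes that did not pass the test.

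The held call of this list was Fabp5, a fatty acid binding protein of macrophages and endothelium. It had 24.8, 147 and 107 FPKM in the ND libraries, 470.1, 429 and 459 FPKM in the TJ libraries and 639, 530.1 and 539 FPKM in the HFD libraries. Unlike the genes above, it had nearly equal levels in the 3 TJ libraries. Fabp5 had a log2 fold change of 1.84 ± 0.19 (SE), with a limma adjusted p-value of 0.00508. Cd36 and Lpl, which this list shares with adipocytes, had log2 fold changes of -0.36 and -1.01 and were not called. For Lpl, ND replicate 1 lay below the TJ libraries, at 205 FPKM against 2068, 1145 and 2403 FPKM. The median of the list was 1.94 without TJ replicate 2 and 1.03 without TJ replicate 1.

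Among the macrophage markers, Cd68, a lysosomal membrane protein, had 7.19, 27 and 19.9 FPKM in the ND and 180.5, 47.9 and 160.1 FPKM in the TJ libraries. Lyz2, the lysozyme of myeloid cells, had 39.7, 430.3 and 321 FPKM and 1678, 587 and 1399 FPKM. Both were called higher, with log2 fold changes of 2.22 and 1.58, as were C1qa, C1qb, C1qc and Itgax. Adgre1, which encodes the F4/80 antigen, had 0.651, 16 and 14.3 FPKM in the ND and 65.6, 11.9 and 68 FPKM in the TJ libraries and overlapped, since TJ replicate 2 lay below ND replicates 2 and 3. The haemoglobin scavenger receptor Cd163 was called lower, at 1.19, 17.6 and 18.6 FPKM in the ND and 11.4, 8.97 and 11.3 FPKM in the TJ libraries, although with all 3 ND libraries its log2 fold change was 0.31. Of 14 genes of resident macrophages, 3 were called higher (Clec10a, Stab1 and Igf1) and 2 lower (Lyve1 and Cd163), with a median of 0.22, and without ND replicate 3 the median was 0.04 and 0 were called. Lyve1, the hyaluronan receptor of vessel-associated macrophages and lymphatic vessels, had 0.353, 11.7 and 11.7 FPKM in the ND and 2.82, 5.32 and 3.11 FPKM in the TJ libraries. ND replicate 1 lay below all TJ libraries and the other ND libraries above them, with a log2 fold change of -1.46 without ND replicate 1 and -0.38 with it.

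**Figure D3:**
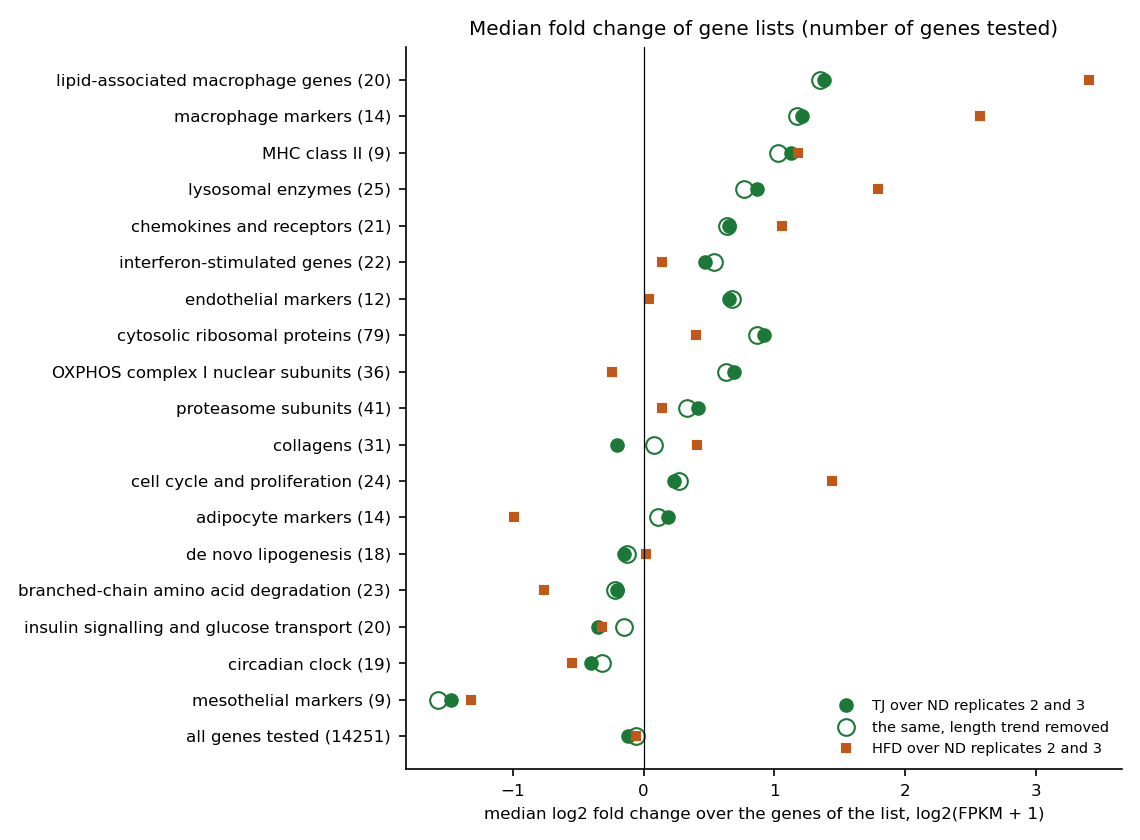
Median log2 fold change on log2(FPKM + 1) over the tested genes of 18 lists and over all genes tested, for TJ over ND replicates 2 and 3 as deposited (filled circles) and with the trend with transcript length removed (open circles), and for HFD over the same ND libraries (squares). Lipid-associated macrophage genes lie at 1.38 in TJ and 3.41 in HFD, while ribosomal protein, OXPHOS complex I and endothelial genes lie higher in TJ than in HFD.

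A part of the lysosomal genes was higher in TJ. Of 25 lysosomal enzymes and membrane proteins, 12 were called higher and 0 lower, with a median of 0.87 in TJ and 1.79 in HFD, and without ND replicate 3 the count was 2. Ctss, a protease that trims the invariant chain of MHC class II, had 5.26, 45.9 and 34.3 FPKM in the ND and 605, 106 and 444 FPKM in the TJ libraries. Psap, the precursor of the saposins, had 234, 872 and 846 FPKM and 2849.6, 1380.3 and 2304 FPKM. Npc2, which carries cholesterol out of the lysosome, was the held call, at 216, 202 and 141 FPKM in the ND, 435, 359.9 and 373 FPKM in the TJ and 419, 418 and 419 FPKM in the HFD libraries. All 3 TJ libraries lay above the ND libraries and on both sides of the HFD range, at a log2 fold change of 1.20 ± 0.18 (SE) and a limma adjusted p-value of 0.0101. Npc1, its membrane partner, had a log2 fold change of -0.44 and was not called.

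Most antigen presentation genes of class II were called higher in TJ. Of 9 MHC class II genes, 6 were called higher and 0 lower, none of them a held call and none called without ND replicate 3, with a median of 1.13 in TJ and 1.18 in HFD. H2-Ab1, a chain of the class II molecule I-A, had 69, 183 and 185 FPKM in the ND, 672, 478 and 564 FPKM in the TJ and 619, 439.6 and 482 FPKM in the HFD libraries. Cd74, the invariant chain, had 149, 565 and 472 FPKM in the ND and 1335, 848 and 1271 FPKM in the TJ libraries. Neither gene overlapped between TJ and ND, and the TJ values lay in or above the HFD range for H2-Ab1. H2-Aa, H2-Eb1, H2-DMa and H2-DMb1 were called as well, with log2 fold changes from 1.13 to 1.48. Ciita, the regulator of class II transcription, had a log2 fold change of 0.55 and was not called.

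A part of the chemokines and complement genes was higher in TJ. Of 21 chemokines and receptors, 7 were called higher and 0 lower, none of them a held call, with a median of 0.65 in TJ and 1.06 in HFD, and the count was 1 without ND replicate 3. Ccl2, the monocyte attractant MCP-1, had 0.156, 4.04 and 4.08 FPKM in the ND, 13.8, 8.77 and 19 FPKM in the TJ and 39, 34.3 and 49.5 FPKM in the HFD libraries, a log2 fold change over ND of 1.49 ± 0.32 (SE) with a limma adjusted p-value of 0.0204. The TJ values lay between those of the ND and the HFD libraries. Ccl8 (1.69), Ccl5 (1.55), Ccl6 (1.21), Cxcl16 (1.04), Cxcr3 (0.70) and Cxcl12 (0.65) were the others called, while the receptor Ccr2 (0.56) was not. Ccl5 lay at 20.1 FPKM in ND replicate 1, above all 3 TJ libraries. Of 17 complement genes 5 were called higher (Cfb, Cfp and the 3 chains of C1q), none of them a held call or called higher without ND replicate 3, with a median of 0.59 in TJ and 0.68 in HFD. Cfb, factor B of the alternative pathway, had 7.57, 123 and 118 FPKM in the ND and 235, 199 and 307 FPKM in the TJ libraries. Cfd, factor D or adipsin, which adipocytes secrete, had 3048, 4074 and 3626 FPKM in the ND, 2091, 9296 and 1668 FPKM in the TJ and 337, 349 and 251 FPKM in the HFD libraries. It was not called, its TJ values ran on both sides of the ND values, and all of them lay above the HFD values. Tnf, Il6, Il1b and Ifng had a mean under 1 FPKM and were not tested.

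Il1rn, Tgfb1 and Pycard were called higher among inflammatory mediators. Of 13 inflammatory cytokine and inflammasome genes tested, these 3 were called higher and 0 lower, and 0 were called without ND replicate 3. Il1rn, the antagonist of the interleukin 1 receptor, had 0, 0.70 and 0.154 FPKM in the ND, 29.2, 1.58 and 17.6 FPKM in the TJ and 56.9, 58.2 and 74.3 FPKM in the HFD libraries. Tgfb1, transforming growth factor β1, had 7.57, 8.92 and 10.6 FPKM, 40.3, 23.4 and 40.8 FPKM and 57.2, 45.4 and 58.9 FPKM in the same order. In both genes every TJ library lay above the ND libraries and below the HFD libraries, and TJ replicate 2 was the lowest of the 3. The third was Pycard (1.37), the inflammasome adaptor, for which ND replicate 1 lay above the TJ libraries. Of 20 matrix crosslinking and matricellular genes, 2 were called higher and 1 lower, with a median of 0.12 that was -0.04 without ND replicate 2, and these shares are near those over all genes tested. With quantile normalization they were 3 and 3. Serpinh1, the collagen chaperone HSP47, had 20.1, 126 and 126 FPKM in the ND, 287, 224 and 281 FPKM in the TJ and 281, 231 and 266 FPKM in the HFD libraries and was a held call at 1.05. Fbn1, which encodes the microfibril protein fibrillin 1, was called lower at 2.08, 27.2 and 39.8 FPKM in the ND and 15.3, 11.4 and 18.9 FPKM in the TJ libraries, while the HFD libraries held 54.4 to 62.2 FPKM. Its call was lost with the trend with transcript length removed. Of 11 stromal progenitor markers tested, 1 was called higher and 2 lower (Fbn1 and Pdgfra), beside 8.24% and 6.20% over all genes tested. The counts were 0 and 0 without ND replicate 3, 2 and 1 with the length trend removed and 2 and 4 with quantile normalization. The median of these markers was -0.37, with 4 positive and 7 negative values, 1.05 with all 3 ND libraries and -0.09 without TJ replicate 3. The summed level of all 12 markers was 104, 1389 and 1154 FPKM in the ND and 1036, 1327 and 1065 FPKM in the TJ libraries and overlapped. Pdgfra, a receptor of these cells, was at 2.69, 14.9 and 14.3 FPKM in the ND, 7.5, 5.44 and 9.05 FPKM in the TJ and 18.4, 20.2 and 20 FPKM in the HFD libraries.

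Ifnar2, Casp8, Ripk3 and Tnfrsf1a, held calls outside the lists, were picked after their values were seen. Ifnar2, a chain of the type I interferon receptor, had 10.8, 51.8 and 37.1 FPKM in the ND, 103, 102 and 106 FPKM in the TJ and 79.4, 73.2 and 71.4 FPKM in the HFD libraries, a log2 fold change of 1.23 ± 0.15 (SE) with a limma adjusted p-value of 0.00623. Casp8, the caspase of death receptors, had 2.22, 22 and 17 FPKM, 38.4, 37.5 and 37.9 FPKM and 27.6, 29.1 and 25.8 FPKM in the same order. For both genes the 3 TJ libraries were nearly equal and lay above every ND and HFD library. Ripk3, the kinase of necroptosis, had 1.37, 1.68 and 1.99 FPKM in the ND, 5.38, 5.39 and 6.71 FPKM in the TJ and 8.87, 7.57 and 7.89 FPKM in the HFD libraries, so its TJ values lay between the other groups. Tnfrsf1a, the receptor TNFR1, was a held call at 0.73.

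The MHC class I genes H2-K1, H2-D1 and H2-Q4, which belong to no list and were picked after their values were seen, and Bst2, of the interferon-stimulated genes, were held calls. The promoters of 5 genes are shown as examples, 3 of interferon-stimulated genes that were called, with the interferon response motif, and 2 of class I genes, with the motif of class I promoters. Each is the 220 bases before the transcription start in RefSeq for GRCm38.p6, written 5′ to 3′ on the gene's strand. In the first 3 the capitals mark matches to the core of the interferon-stimulated response element, GAAA, any 2 bases and GAAA again, on either strand, with overlapping matches run together. In the last 2 they mark GGGATTCCC, the NF-κB type motif of class I promoters. The Bst2 window is chr8:71537473-71537692 on the minus strand, that of Isg15 chr4:156200819-156201038 on the minus strand, that of Ifit3 chr19:34583309-34583528 on the plus strand, that of H2-K1 chr17:34000348-34000567 on the minus strand and that of H2-D1 chr17:35262874-35263093 on the plus strand.
Bst2: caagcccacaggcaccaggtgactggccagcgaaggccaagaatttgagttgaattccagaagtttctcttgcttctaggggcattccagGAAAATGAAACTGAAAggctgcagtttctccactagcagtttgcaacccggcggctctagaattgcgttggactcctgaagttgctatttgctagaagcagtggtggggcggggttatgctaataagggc
Isg15: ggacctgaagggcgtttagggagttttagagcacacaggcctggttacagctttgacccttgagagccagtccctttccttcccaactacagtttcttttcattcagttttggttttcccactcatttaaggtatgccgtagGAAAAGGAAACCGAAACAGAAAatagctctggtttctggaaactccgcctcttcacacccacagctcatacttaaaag
Ifit3: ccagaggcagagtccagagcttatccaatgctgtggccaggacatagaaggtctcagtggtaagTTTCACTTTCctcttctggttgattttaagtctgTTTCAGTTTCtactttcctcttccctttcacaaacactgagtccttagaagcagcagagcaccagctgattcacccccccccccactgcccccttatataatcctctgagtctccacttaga
H2-K1: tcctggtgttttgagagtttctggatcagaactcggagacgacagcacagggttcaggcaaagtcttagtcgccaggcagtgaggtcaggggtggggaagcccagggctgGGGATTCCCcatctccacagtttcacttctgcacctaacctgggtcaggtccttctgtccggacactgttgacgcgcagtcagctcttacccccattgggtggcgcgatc
H2-D1: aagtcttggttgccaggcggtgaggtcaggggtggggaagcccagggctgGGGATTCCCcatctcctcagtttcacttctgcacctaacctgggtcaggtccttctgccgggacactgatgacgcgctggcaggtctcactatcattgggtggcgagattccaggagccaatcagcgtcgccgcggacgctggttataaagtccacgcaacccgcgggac

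In windows from 250 bases before to 50 after the start, this response element core was found on either strand for 1079 of 27025 genes of the RefSeq table (3.99%) and for 408 of the 10948 tested genes that matched it by symbol (3.73%). It was found for 11 of the 16 matched interferon-stimulated genes (68.8%) and for all 4 matched ones that were called. Of the held calls, 2 of the 84 matched higher genes (2.38%) and 0 of the 26 matched lower genes held it. GGGATTCCC was found on either strand for 112 of the 27025 genes (0.414%) and for 49 of the 10948 tested (0.448%), and in 2 of the 84 windows of the held higher genes, those of H2-K1 and H2-D1. A match is a run of letters and not a measured binding site.

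H2-K1, the classical class I molecule H-2K, had 266, 521 and 531 FPKM in the ND libraries, 1562, 1588 and 1531 FPKM in the TJ libraries and 1183, 1067 and 1223 FPKM in the HFD libraries. The 3 TJ libraries were nearly equal and lay above every HFD and ND library. Its log2 fold change over ND was 1.57 ± 0.19 (SE), with a limma adjusted p-value of 0.00604, and 1.14 in HFD. H2-D1 had 131, 654 and 640.2 FPKM and 1472, 1541 and 1344 FPKM, and H2-Q4 had 8.43, 39.2 and 42.4 FPKM and 97.8, 96.6 and 97.8 FPKM, in ND and TJ libraries. Both were held calls, with log2 fold changes of 1.16 and 1.24. Class I genes are near-identical copies, and reads could have been divided among them. Psmb8, an immunoproteasome subunit that cuts peptides for class I, was also a held call, at 0.933, 4.31 and 9.41 FPKM in the ND and 16.2, 21.5 and 22.1 FPKM in the TJ libraries. Its partner Psmb9 was called higher, with a log2 fold change of 1.21 in TJ and 0.09 in HFD.

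Of 22 interferon-stimulated genes tested, 7 were called higher and 0 lower, with a median of 0.47 in TJ and 0.14 in HFD. Of these, 1 was a held call, and the count was 1 without ND replicate 3 and 11 with quantile normalization. Bst2, which encodes tetherin (ENSMUSG00000046718, chr8:71534255-71537456), had 38, 33.7 and 34.6 FPKM in the ND libraries and 108, 152 and 94.4 FPKM in the TJ libraries. The lowest TJ library lay far above the highest ND library, and the HFD libraries held 42.4 to 51.8 FPKM. Its log2 fold change was 1.73 ± 0.21 (SE), with limma adjusted p-values of 0.00623 in the 11-library and 0.029 in the 12-library fit. Isg15, a ubiquitin-like modifier, had 4.99, 5.6 and 5.76 FPKM and 14.6, 22.1 and 11.9 FPKM, a log2 fold change of 1.32 in TJ and 0.27 in HFD. Ifit3 had 1.81, 12.5 and 10.2 FPKM and 19.8, 23.6 and 20.8 FPKM, and its ND replicate 1 was the lowest library. Zbp1 (1.26), Oas1a (1.24), Oas2 (0.84) and Usp18 (0.73) were the others called. Ifit1 (0.06), Ifit2 (-0.05), Ifih1 (-0.11) and Iigp1 (0.08) had log2 fold changes near 0. Rtp4, an interferon-induced chaperone outside the list, was a held call at 1.24.

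A part of the endothelial markers was higher in TJ than in ND replicates 2 and 3. Of 12 endothelial markers, 6 were called higher (Vwf, Egfl7, Cldn5, Emcn, Esam and Tie1) and 0 lower, with a median of 0.65 in TJ, 0.68 with the trend with transcript length removed, and 0.04 in HFD. Vwf was the held call among them, and without ND replicate 3 the count was 2. The summed level of these markers was 259, 541 and 588 FPKM in the ND, 861, 1308 and 1200.0 FPKM in the TJ and 559, 534 and 461 FPKM in the HFD libraries, with every TJ library above every ND and HFD library. The median was 0.42 without ND replicate 2 and 0.83 without ND replicate 3.

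The transcription factors Tcf15, Sox18, Sox17 and Meox1 were held calls outside the lists, picked after their values were seen. Tcf15, which is expressed in the capillary endothelium of fat, heart and muscle (ENSMUSG00000068079, chr2:152143561-152149097), had 3.69, 3.98 and 2.43 FPKM in the ND, 20.2, 39.3 and 22.7 FPKM in the TJ and 5.79, 3.61 and 5.16 FPKM in the HFD libraries. The lowest TJ library was above all ND and HFD libraries. Its log2 fold change was 2.72 ± 0.30 (SE), with limma adjusted p-values of 0.00548 in the 11-library and 0.0168 in the 12-library fit, and 0.48 in HFD. Sox18, a factor of vessel and lymphatic development, had 3.08, 14.7 and 18.1 FPKM in the ND, 53.8, 95.1 and 71.6 FPKM in the TJ and 28.7, 27.1 and 19.6 FPKM in the HFD libraries. Sox17, its relative in arterial endothelium, had 2.61, 4.22 and 9.25 FPKM, 14.3, 22.1 and 19.7 FPKM and 9.82, 7.63 and 6.76 FPKM in the same order. Meox1, a homeobox factor, had 1.77, 4.54 and 4.54 FPKM in the ND and 9.95, 13.5 and 11.2 FPKM in the TJ libraries. In all 4 factors the TJ and ND libraries did not overlap.

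Vwf, Cldn5 and Egfl7 are members of the endothelial list, and Gpihbp1, Plvap, Hspg2, Grrp1 and Tmem88 stand outside it and were picked after their values were seen. Vwf, von Willebrand factor, had 30.3, 12.1 and 14.2 FPKM in the ND, 36.6, 50.4 and 34.5 FPKM in the TJ and 21.7, 15.7 and 14.3 FPKM in the HFD libraries, and was a held call at 1.54 ± 0.21 (SE) with a limma adjusted p-value of 0.00761. ND replicate 1 was the highest ND library for this gene and still lay below the TJ libraries. Cldn5, a tight junction protein, had 116, 131 and 129 FPKM and 226, 383 and 322 FPKM in the ND and TJ libraries. Egfl7, a protein secreted by endothelium, had 86, 112 and 109 FPKM and 237, 433 and 282 FPKM. Gpihbp1, which carries lipoprotein lipase to the capillary surface, had 48, 109 and 89.4 FPKM in the ND, 175, 443 and 212 FPKM in the TJ and 84.8, 73.8 and 63.1 FPKM in the HFD libraries. For Cldn5, Egfl7 and Gpihbp1, TJ replicate 2 was the highest TJ library, and the log2 fold changes of 1.21, 1.46 and 1.35 were called but did not hold without each library. Plvap, the diaphragm protein of fenestrated capillaries (1.22), Hspg2, perlecan of the basement membrane (1.29), Grrp1 (1.91) and Tmem88 (1.48) were held calls, and in HFD these 4 had 0.40, 0.58, 0.51 and 0.12.

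Several other genes by which endothelium is often recognised were not called. Kdr, the VEGF receptor VEGFR2, had 1.65, 32.7 and 35.5 FPKM in the ND and 31.9, 29.4 and 52.1 FPKM in the TJ libraries, with ND replicates 2 and 3 within the TJ range. Flt1, Tek, Pecam1, Cdh5 and Erg had log2 fold changes from -0.12 (Tek) to 0.53 (Erg), and none of them was called. In the wider list of 20 endothelial and angiogenic genes, 4 were called higher (Aplnr, Nos3, Vegfb and Tie1) and 1 lower, against 2 and 0 without ND replicate 3. Nos3, the nitric oxide synthase of endothelium, had 0.771, 1.5 and 1.18 FPKM in the ND and 4.3, 6.95 and 3.51 FPKM in the TJ libraries. Fgf2, the gene called lower, was at 0, 10.5 and 7.12 FPKM in the ND libraries and 1.56, 2.04 and 3.78 FPKM in the TJ libraries, so it was listed at 0 in ND replicate 1, and the other ND libraries lay above the TJ libraries.

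**Figure D4:**
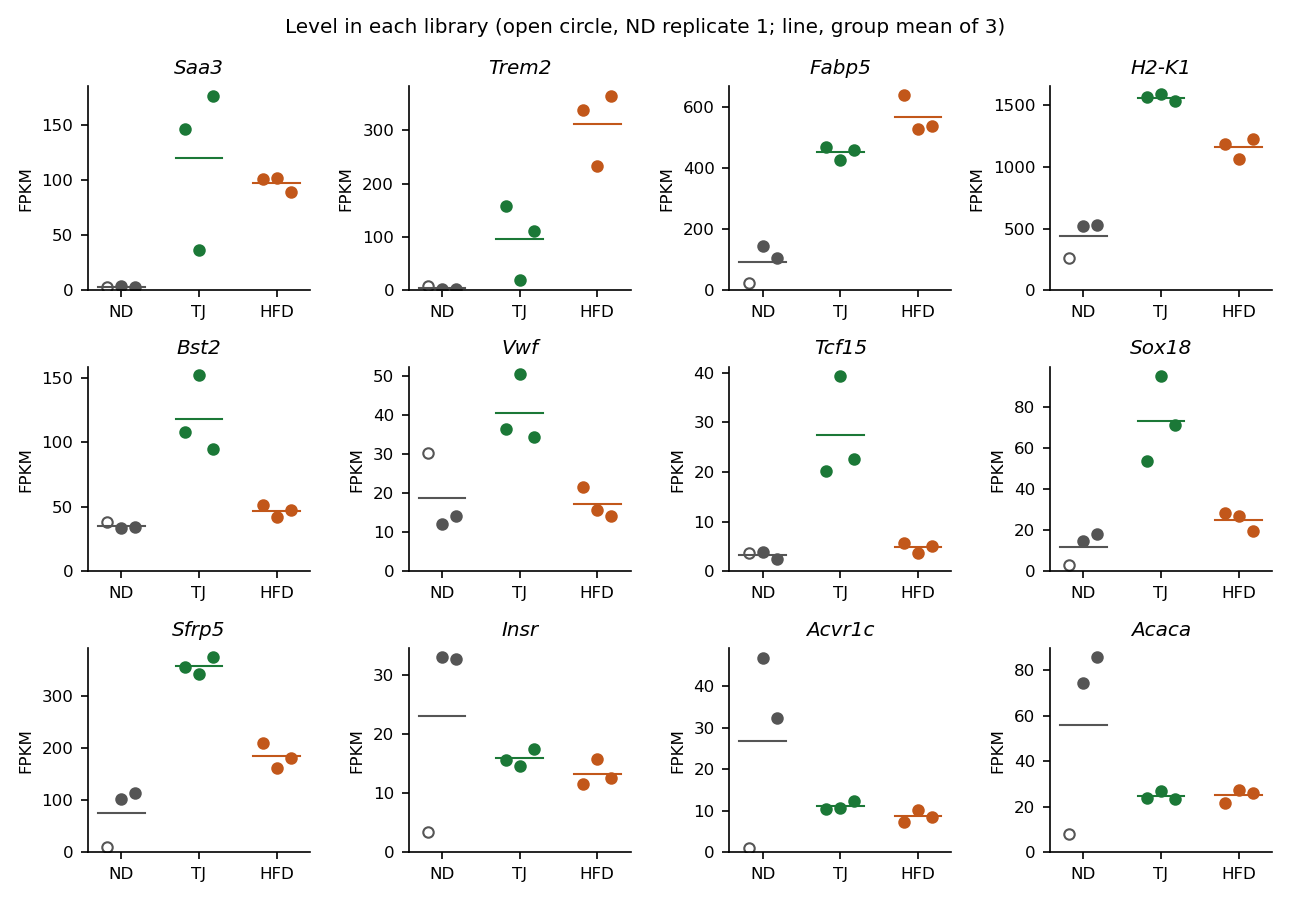
FPKM of 12 genes in each ND, TJ and HFD library (points; open circle, ND replicate 1) with the mean of each group of 3 (lines). Tcf15, Sox18, Vwf, Bst2 and Sfrp5 are highest in TJ, Trem2 and Fabp5 are highest in HFD with TJ in between, and Insr, Acvr1c and Acaca lie below ND replicates 2 and 3 in both TJ and HFD while ND replicate 1 lies lower still.

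Of 14 adipocyte markers 1 was called higher (Cebpa) and 1 lower (Acvr1c), which is near the shares of 8.24% and 6.20% over all genes tested, with a median of 0.19 in TJ and -0.99 in HFD. With all 3 ND libraries the median in TJ was 1.16, and with quantile normalization it was -0.25, with 0 called higher and 3 lower, and -0.01 without ND replicate 3. Adipoq, which encodes adiponectin, had 202, 2781 and 1826 FPKM in the ND, 2410.0, 3738 and 2253 FPKM in the TJ and 1027, 1037 and 908 FPKM in the HFD libraries. The TJ values lay on both sides of ND replicate 2 and above all HFD values, at a log2 fold change over ND of 0.28 ± 0.30 (SE) with a limma adjusted p-value of 0.50. Adrb3, the β3-adrenergic receptor that starts lipolysis, had 17.8, 282 and 331 FPKM in the ND, 249, 616 and 274 FPKM in the TJ and 92, 56.9 and 41.4 FPKM in the HFD libraries. TJ replicate 2 was above ND replicates 2 and 3 and the other TJ libraries below them. Lep, which encodes leptin, had 7.97, 323 and 317 FPKM in the ND, 719, 292 and 825 FPKM in the TJ and 899, 1196 and 1186 FPKM in the HFD libraries, at a log2 fold change of 0.80 ± 0.38 (SE) that was not called. Retn (0.51), Ucp3 (-0.27), Prkag3 (0.23), Ndufa2 (1.02) and Atp5l (1.03) were not called either, but Ndufa2 and Atp5l were called higher with the trend with transcript length removed. With ND replicate 1 left out, the directions of Adipoq, Adrb3, Prkag3 and Retn turned under some of the settings tried. Putting ND replicate 1 back was not among these settings. Ucp3 had 2.57, 41.5 and 47 FPKM in the ND and 33.6, 44.4 and 32.4 FPKM in the TJ libraries. For this gene ND replicate 1 thus lay far below the TJ libraries.

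Sfrp5 was a held call among the secreted proteins, beside Saa3. Of 17 adipokines and secreted proteins, 5 were called higher and 0 lower, with 2 higher without ND replicate 3. Their median of 0.28 was -0.07 with quantile normalization, 0.14 without ND replicate 3 and 0.02 without TJ replicate 2. Sfrp5, an antagonist of Wnt signalling that adipocytes secrete (ENSMUSG00000018822, chr19:42197971-42202252), had 10.4, 103 and 114 FPKM in the ND, 357, 343 and 375 FPKM in the TJ and 209.5, 163 and 181 FPKM in the HFD libraries. The 3 TJ libraries were close to each other and above every ND and HFD library. Sfrp5 had a log2 fold change of 1.72 ± 0.19 (SE), with a limma adjusted p-value of 0.00548, and 0.76 in HFD. Hp, haptoglobin, had 219, 1181 and 1159 FPKM in the ND and 4102, 2723 and 5597 FPKM in the TJ libraries, and Rarres2, which encodes chemerin, had 77.6, 261 and 159 FPKM and 395, 632 and 406 FPKM. Both were called higher, with log2 fold changes of 1.76 and 1.19. Metrnl, a secreted protein of fat and macrophages, was called at 1.45. Agt (-1.13), Nrg4 (-0.86) and Lcn2 (-2.06) had negative values that were not called, and the Lcn2 level of 1391, 2.08 and 76.2 FPKM in the ND libraries was highest in ND replicate 1, which also held the most epididymis and mesothelial RNA.

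A part of the insulin signalling genes was lower in TJ than in ND replicates 2 and 3. Of 20 genes, 8 were called lower and 0 higher, with a median of -0.35 in TJ and -0.32 in HFD, and without ND replicate 3 the count of lower calls was 2. The direction rested on leaving out ND replicate 1, since the median was 0.24 with all 3 ND libraries, and with the trend with transcript length removed it was -0.15. Insr, the insulin receptor (ENSMUSG00000005534, chr8:3122061-3279617), had 3.51, 33.1 and 32.7 FPKM in the ND, 15.6, 14.6 and 17.5 FPKM in the TJ and 11.5, 15.8 and 12.6 FPKM in the HFD libraries. ND replicate 1 was the lowest of all, and ND replicates 2 and 3 were nearly equal and above the TJ libraries. Its log2 fold change was -1.01 ± 0.15 (SE), with a limma adjusted p-value of 0.0104, and it was not called with the trend with transcript length removed. Pik3cb, a catalytic subunit of phosphoinositide 3-kinase, had 2.74, 29.4 and 35.8 FPKM in the ND and 14.5, 15.8 and 13.8 FPKM in the TJ libraries, and it and Insr were the held calls of the list. Irs2, which couples the receptor to that kinase, had 2.13, 24.3 and 36.4 FPKM and 11.9, 6.63 and 14.4 FPKM, and Irs1 had 0.598, 3.23 and 4.12 FPKM and 1.08, 0.774 and 1.47 FPKM, in ND and TJ libraries. Both were called lower. Cbl, Gsk3b and Pdpk1 were also called lower, with log2 fold changes from -1.92 (Cbl) to -1.21 (Pdpk1), and for these genes ND replicate 1 also lay above the TJ libraries. Akt1 (0.41), Akt2 (-0.05) and the glucose transporter Slc2a4 (-0.10) were not called. Grb10, an adaptor that restrains the insulin receptor and stands outside the list, was a held lower call at 3.08, 31.8 and 31.8 FPKM in the ND and 14.6, 14.9 and 14.8 FPKM in the TJ libraries.

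Of 20 genes of lipolysis and its receptors, 3 were called lower (Pde3b, Abhd5 and Insr) and 0 higher, against 2 lower without ND replicate 3 and 2 with the length trend removed, where Insr was lost, with a median of 0.04 in TJ, 0.01 without ND replicate 3, -0.14 with quantile normalization, and -0.59 in HFD. Pde3b, the phosphodiesterase through which insulin restrains lipolysis, had 6.19, 189 and 136 FPKM in the ND, 61.2, 45.6 and 78.4 FPKM in the TJ and 49.6, 62.4 and 52 FPKM in the HFD libraries and was a held call at -1.39, while over all 3 ND libraries its value was 0.10. Abhd5, the coactivator of adipose triglyceride lipase, had 94.3, 84 and 95.1 FPKM and 48.1, 56.8 and 53.9 FPKM, and here ND replicate 1 lay with the other ND libraries. The lipases Pnpla2 (-0.35), Lipe (0.26) and Mgll (0.14) were not called. Acvr1c, the activin receptor ALK7 of adipocytes, was the held lower call among the adipocyte markers, at 1.15, 46.9 and 32.3 FPKM in the ND, 10.6, 10.8 and 12.3 FPKM in the TJ and 7.24, 10.2 and 8.64 FPKM in the HFD libraries. Acvr1c had a log2 fold change of -1.71 ± 0.23 (SE), with a limma adjusted p-value of 0.00727, against -2.06 in HFD and -0.31 over all 3 ND libraries.

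Of 18 genes of de novo lipogenesis, Acaca and Elovl6 were called lower and 0 higher, beside 6.20% lower over all genes tested, with a median of -0.15 that was 0.63 with all 3 ND libraries and 0.01 without TJ replicate 2. Neither was called without ND replicate 3. Acaca, acetyl-CoA carboxylase 1, which makes malonyl-CoA, had 8.0, 74.2 and 85.8 FPKM in the ND, 23.8, 27.1 and 23.3 FPKM in the TJ and 21.8, 27.5 and 26.2 FPKM in the HFD libraries, a log2 fold change of -1.65 ± 0.25 (SE) with a limma adjusted p-value of 0.0104. Elovl6, a fatty acid elongase, had 5.29, 5.37 and 5.54 FPKM and 1.94, 0.992 and 2.79 FPKM in ND and TJ, with ND replicate 1 close to the others, and 4.17 to 7.52 FPKM in the HFD libraries. Fasn (-0.16), Scd1 (-0.56), Acly (-0.76) and Srebf1 (-0.28) were not called. Of 21 genes of triglyceride synthesis and the lipid droplet, 4 were called higher (Plin2, Gpd1, Hilpda and Agpat2) and 2 lower (Gpam and Abhd5), against 2 and 7 with quantile normalization and 0 without ND replicate 3. Gpd1, which makes glycerol 3-phosphate, had 8.07, 12.5 and 6.85 FPKM in the ND and 31.7, 22.8 and 25.1 FPKM in the TJ libraries. Gpam, which starts triglyceride synthesis from it, had 2.25, 38.9 and 43.4 FPKM and 18.2, 12.9 and 24.3 FPKM.

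Among 18 adipogenic transcription factors, 3 were called higher (Cebpa, Cebpb and Esrra) and 3 lower (Ppargc1a, Ebf1 and Ebf2), against 0 and 2 without ND replicate 3 and 2 and 1 with quantile normalization. Cebpa, a factor of mature adipocytes, had 16.6, 128 and 129 FPKM in the ND and 211, 286 and 199 FPKM in the TJ libraries, and Cebpb, an early factor that inflammation also induces, had 18.8, 6.79 and 4.4 FPKM and 22.5, 24.9 and 15.9 FPKM. Both were called higher, with log2 fold changes of 0.82 and 1.75, and Pparg (0.19) was not called. Ppargc1a, the coactivator PGC-1α of mitochondrial genes, had 0.35, 2.98 and 2.72 FPKM in the ND, 0.479, 0.566 and 0.91 FPKM in the TJ and 0.677, 0.822 and 0.499 FPKM in the HFD libraries and was a held lower call at -1.23. Ebf2, a factor of brown and beige progenitors, was the other held lower call, at 0.362, 11.5 and 9.07 FPKM in the ND and 3.71, 4.75 and 3.94 FPKM in the TJ libraries. For Ppargc1a and Ebf2 ND replicate 1 lay below the TJ libraries. Irf4, a factor of adipocytes and lymphocytes, was a held lower call as well, at 0.679, 7.45 and 12.5 FPKM in the ND and 1.79, 3.04 and 2.51 FPKM in the TJ libraries. Of 9 subunits and activators of AMPK, the energy-sensing kinase, 3 were called lower (Prkaa1, Prkaa2 and Prkab2) and 0 higher, with log2 fold changes of -1.17, -0.91 and -0.72. None of the AMPK genes was a held call, and 1 was called lower with the trend with transcript length removed, 0 with quantile normalization and 0 without ND replicate 3. Of 23 genes of branched-chain amino acid degradation, 3 were called lower and 0 higher, beside 6.20% lower over all genes tested, and 0 were called without ND replicate 3 and 5 with quantile normalization. Their median was -0.20 in TJ and -0.76 in HFD, and the direction in TJ rested on leaving out ND replicate 1, since it was 0.50 with all 3 ND libraries, and -0.05 without ND replicate 2.

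A part of the ribosomal and OXPHOS genes was higher in TJ than in ND replicates 2 and 3. Of 79 cytosolic ribosomal proteins, 42 were called higher and 0 lower, with a median of 0.92 in TJ and 0.40 in HFD, and no member was a held call. Without ND replicate 3 no ribosomal protein was called, although the median stayed at 0.78. Rps23, a protein of the small subunit, had 1222, 287 and 204 FPKM in the ND, 661, 1052 and 459 FPKM in the TJ and 468, 428 and 456 FPKM in the HFD libraries. Rpl41 had 4576, 488 and 403 FPKM in the ND and 1215, 1993 and 763 FPKM in the TJ libraries. In both genes ND replicate 1 was the highest of the 6 libraries, and with all 3 ND libraries the list median was 0.29. Quantile normalization moved the list median to 0.45 and the count of higher calls to 19, and median-of-ratios scaling moved the count to 31.

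Of 36 nuclear genes of OXPHOS complex I, 11 were called higher and 1 lower, with a median of 0.69 in TJ and -0.24 in HFD. Ndufb2 was the held call, at 205, 15.7 and 27.9 FPKM in the ND, 51.5, 93.2 and 53.6 FPKM in the TJ and 43.1, 30.2 and 40.2 FPKM in the HFD libraries. Ndufb3, another membrane arm subunit, had 63.2, 101 and 77 FPKM in the ND and 196, 241 and 135 FPKM in the TJ libraries with no overlap. Ndufs1, the large iron-sulfur subunit, was called lower at 5.73, 52.2 and 39.7 FPKM in the ND and 24.6, 17.1 and 26.5 FPKM in the TJ libraries. Of 46 genes of complexes II to V, 10 were called higher and 1 lower, beside 8.24% and 6.20% over all genes tested. Their median was 0.58 in TJ and -0.13 in HFD. Cox5b was the held call, at 289, 42.7 and 79.7 FPKM in the ND and 221, 402 and 182 FPKM in the TJ libraries. With all 3 ND libraries the medians of complex I and of complexes II to V were 0.08 and 0.30, and without ND replicate 3 they were 0.44 and 0.28. Quantile normalization moved the median of complexes II to V to 0.24. Of 75 mitochondrial ribosomal proteins 19 were called higher and 0 lower, and of 41 proteasome subunits 10 were called higher and 0 lower, with medians of 0.48 and 0.42. Without ND replicate 3 the higher calls fell to 1 in complex I, 1 in complexes II to V, 0 in the mitochondrial ribosome and 1 in the proteasome. With quantile normalization the proteasome had 6 higher and 2 lower calls, and complexes II to V 9 and 3. No mitochondrial ribosomal protein was a held call. TJ replicate 2 was the highest TJ library for Rps23, Rpl41, Ndufb2, Ndufb3 and Cox5b, and without it the medians of complex I, complexes II to V, the cytosolic and the mitochondrial ribosome were 0.41, 0.34, 0.66 and 0.27. The proteasome median was 0.25 without ND replicate 3. Other mitochondrial lists had medians near that of all genes tested or near 0 with the values as deposited. With quantile normalization the medians were -0.39 for the tricarboxylic acid cycle, 0.02 for mitochondrial carriers and -0.18 for beta-oxidation, beside 0.06 over all genes tested. Of 18 genes of the tricarboxylic acid cycle 0 were called higher and 1 lower, with a median of -0.11, of 42 mitochondrial carriers 2 were called higher and 0 lower, with a median of -0.06, and of 22 genes of fatty acid beta-oxidation 3 were called higher and 1 lower, with a median of 0.01. Over all genes tested 8.24% were called higher and 6.20% lower. The beta-oxidation counts were 1 and 0 with median-of-ratios scaling, 1 and 2 with quantile normalization and 0 and 0 without ND replicate 3.

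Transcript length ran with the fold changes. Over the 14133 genes with a length, Spearman's rho of the log2 fold change of TJ over ND replicates 2 and 3 with length was -0.267, and that of HFD over the same libraries was 0.037. The libraries differed in this. For the deviation of each library from the mean of ND replicates 2 and 3 and the TJ and HFD libraries, rho was -0.264, -0.396 and 0.009 in TJ replicates 1 to 3, 0.132 and 0.167 in ND replicates 2 and 3, and -0.061, 0.393 and 0.290 in HFD replicates 1 to 3, so TJ replicate 3 did not share the trend. These are values across genes, which are not independent replicates and share the same libraries. The genes were split into 4 bins of equal size by length. In the bin with the shortest transcripts (median 1322 nt) the median log2 fold change was 0.19, with 647 genes called higher and 56 lower. In the bin with the longest (median 6057 nt) it was -0.41, with 59 called higher and 533 lower. The ribosomal and OXPHOS genes lay among the short transcripts and the insulin signalling genes among the long ones, with median lengths of 1025.5 nt for complex I and 6480.5 nt for insulin signalling. With this trend removed from each library, 1161 genes were called higher and 674 lower, of which 978 and 565 were called before its removal, and 118 of the 120 and 34 of the 38 held calls were called. Of the genes named here, Insr, Fbn1, Clock, Rora, Prkaa2, Prkab2, Acp5, Ccl6, Ccl8, Cxcr3, Cfp, Ctsd, H2-DMb1, Hmox1 and Lyz2 were called before and not after, and Atp5l, Ndufa2, Ctsl and Prm1 after and not before. ENSMUSG00000097070 had no length. The list medians became 0.87 for cytosolic ribosomal proteins, 0.63 for complex I and 1.35 for lipid-associated macrophage genes.

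**Figure D5:**
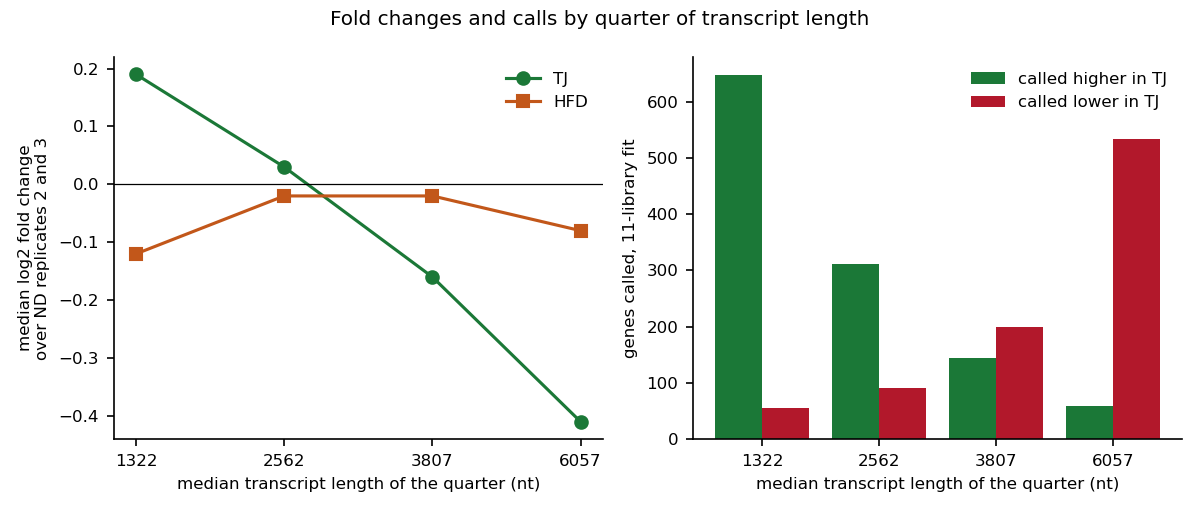
Left, median log2 fold change over ND replicates 2 and 3 in 4 bins of the tested genes by transcript length (x axis, median length in nt), for TJ and HFD. Right, number of genes called higher and lower in TJ in the 11-library fit in each bin; in TJ the median runs from 0.19 to -0.41 and the calls change from mostly higher to mostly lower as length grows, while the HFD medians stay between -0.12 and -0.02.

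Further held calls fell outside the lists. Rnaset2a and Rnaset2b, near-identical copies of a lysosomal ribonuclease between which reads could be divided, had 8.65, 0.772 and 0.927 FPKM and 6.98, 0.443 and 0.475 FPKM in the ND and 9.1, 10 and 7.58 FPKM and 9.03, 8.42 and 8.77 FPKM in the TJ libraries. ND replicate 1 lay near the TJ level for both, and their log2 fold changes were 2.41 and 2.74 in TJ and 2.51 and 2.84 in HFD. Pfn1, profilin, which binds actin, had 422, 111 and 112 FPKM in the ND and 493, 374 and 380.2 FPKM in the TJ libraries. Cavin3, a coat protein of caveolae, had 24.3, 85 and 71.8 FPKM in the ND, 242, 236 and 229 FPKM in the TJ and 165, 152 and 168 FPKM in the HFD libraries, and its 3 TJ values lay within a narrow range above all others. Sod3, the extracellular superoxide dismutase, had 30, 166 and 155 FPKM, 309, 324 and 325 FPKM and 206, 180.3 and 200.1 FPKM in ND, TJ and HFD, again with the TJ libraries above all others. Crtac1, a matrix protein, had 3.04, 10.6 and 10 FPKM in the ND, 34.7, 37 and 33.3 FPKM in the TJ and 19.6, 15.4 and 14.2 FPKM in the HFD libraries. Cela1, an elastase, had 5.98, 15 and 10.5 FPKM and 55.5, 42.3 and 58 FPKM in ND and TJ. For Cavin3, Crtac1 and Cela1 the TJ libraries did not overlap with any ND library.

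Among the held lower calls, Aak1, a kinase of clathrin-coated pits (ENSMUSG00000057230, chr6:86849517-87003223), had 15.5, 6.53 and 10.7 FPKM in the ND, 0.703, 1.25 and 1.06 FPKM in the TJ and 5.25, 7.37 and 5.76 FPKM in the HFD libraries. Every TJ library was below every ND and HFD library, at a log2 fold change of -2.24 ± 0.25 (SE) with limma adjusted p-values of 0.00548 in the 11-library and 0.0171 in the 12-library fit. Its transcript of 19341 nt is long. Enpp2, autotaxin, which adipocytes secrete, had 18.4, 181 and 124 FPKM in the ND, 81.7, 66.9 and 64.4 FPKM in the TJ and 67.7, 97.3 and 89.4 FPKM in the HFD libraries, with ND replicate 1 the lowest library. Chd8, a chromatin remodeller, had 3.2, 10.1 and 10.8 FPKM in the ND and 1.8, 0.882 and 2.89 FPKM in the TJ libraries, and Ube3a, a ubiquitin ligase, had 9.54, 12.9 and 13.1 FPKM and 4.85, 3.63 and 5.47 FPKM. Neither overlapped between the groups, and their values in HFD were -0.77 and -0.31. Gpx5, an epididymis marker, was a held lower call at 6364, 4.14 and 4.91 FPKM in the ND and 0, 0.116 and 0.637 FPKM in the TJ libraries, and Gm17611, a gene model, was listed at 37.2, 7.09 and 6.84 FPKM in the ND libraries and at 0 in all TJ and HFD libraries. Pde1a, a calcium-dependent phosphodiesterase, was called in the 12-library fit at 56.9, 42.2 and 40.1 FPKM in the ND, 12.5, 13.4 and 14 FPKM in the TJ and 14, 14.7 and 9.06 FPKM in the HFD libraries.

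Of 18 testis germ cell markers 5 were called lower, of 19 epididymis markers 3 and of 9 mesothelial markers 4, against 0, 1 and 0 without ND replicate 3, with no member of these lists called higher and medians of -4.48, -0.23 and -1.47. The counts were 10, 2 and 6 with the length trend removed and 11, 2 and 2 with quantile normalization, which also turned the epididymis median to 0.19. The germ cell median was -2.46 without ND replicate 3 and -6.50 without ND replicate 2, and the epididymis median was -0.40 to -0.09 without single libraries, nearest 0 without TJ replicate 3. Germ cell markers such as Prm1 stood at 18708, 32.3 and 502 FPKM in the ND libraries and 1.62, 1.91 and 0.201 FPKM in the TJ libraries. In TJ the summed level was 3.17 to 13 FPKM over 20 germ cell and 5.18 to 21.2 FPKM over 19 epididymis markers. These markers thus met the filter of 1 FPKM mainly through the ND libraries. Their lower direction in TJ was in part fixed by this filter and is no separate result. Ankef1, a held lower call with an ankyrin repeat, had 125, 146 and 118 FPKM in the ND, 40, 36.1 and 47.6 FPKM in the TJ and 47.8, 39 and 27.4 FPKM in the HFD libraries. Whether its level ran with the germ cell RNA was not tested.

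Of 19 clock genes, 4 were called lower, Per1, Clock and Rora among them, and 0 higher, with a median of -0.40 in TJ and -0.55 in HFD. None was a held call, and the count was 2 with the length trend removed and 0 without ND replicate 3, where the median was -0.21. With quantile normalization the median was -0.10. Per1, a repressor of the clock, had 24.7, 14.8 and 33.8 FPKM in the ND and 7.54, 9.46 and 6.74 FPKM in the TJ libraries. Dbp, an output gene of the clock, had 4.34, 1.79 and 4.34 FPKM and 14.3, 28.4 and 4.64 FPKM, a wide spread among the TJ libraries. Its log2 fold change of 1.82 was not called. Of 18 glycolysis genes 2 were called higher and 2 lower, near the shares over all genes tested, with a median of -0.03 that was 0.23 without ND replicate 3. The higher and lower calls were 2 and 0 with median-of-ratios scaling, 0 and 2 with quantile normalization, 1 and 1 with the length trend removed and 0 and 1 without ND replicate 3. Gapdh, a glycolytic enzyme often used as a reference gene, was one of the lower calls, lost with median-of-ratios scaling, at 50.2, 231 and 128 FPKM in the ND and 67.7, 85.3 and 75.7 FPKM in the TJ libraries, with ND replicate 1 below them. The hour at which each mouse was sampled is not given in the sources used here. Of 18 targets of NRF2, the factor of the oxidative stress response, 5 were called higher and 0 lower, with 3 higher and 1 lower with the length trend removed and 0 without ND replicate 3. Ftl1 and Fth1, the chains of ferritin, had log2 fold changes of 1.56 and 1.13 in TJ and 1.69 and 0.86 in HFD. Hmox1, which degrades haem, had 3.15, 17 and 18.5 FPKM in the ND, 59.2, 29 and 52.4 FPKM in the TJ and 110.5, 92.8 and 133 FPKM in the HFD libraries. Of 24 cell cycle genes, 1 was called higher (Mcm3) and 0 lower, beside 8.24% higher over all genes tested. The count was 7 with quantile normalization and 2 with median-of-ratios scaling. Their median was 1.44 in HFD and 0.23 in TJ, and in TJ it turned to -0.15 with all 3 ND libraries and to -0.23 without ND replicate 2, and was 0.62 without ND replicate 3. Of 31 collagens, 1 was called higher (Col12a1) and 0 lower, beside 8.24% and 6.20% over all genes tested, with 4 higher with the length trend removed and 3 with median-of-ratios scaling. The collagen median of -0.20 in TJ, beside 0.41 in HFD, had no stable direction, at 0.08 with the length trend removed, 0.10 with quantile normalization, 0.20 with all 3 ND libraries, 0.13 without ND replicate 3 and 0.11 without TJ replicate 2.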

How the data were processed

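RNA of eWAT was sequenced by the authors, and the deposited values are FPKM per gene in each of 12 libraries, 3 per group. Per the labels and methods the reads were processed with CASAVA 1.8.2, aligned with STAR (2.4.0 in the submitters' processing notes; the methods name another version) and quantified with Cufflinks 2.1.1, each library scaled to its own total. The methods name a human genome, while all 23474 identifiers are mouse genes. GENCODE mouse release M21 (GRCm38) supplied symbols, positions and lengths of transcripts and gave no symbol for 803 identifiers. Libraries were grouped by the labels, and none were identical. Genes whose TJ and ND libraries averaged at least 1 FPKM were tested on log2(FPKM + 1) with limma 3.58.1 (R 4.3.3, moderated test with a trend, Benjamini-Hochberg adjustment over all genes), after the script was checked on simulated data. The designs on 6 libraries and on 5, without ND replicate 1, were the main ones, and the fits with the spread shared over 12 or 11 libraries were an alternative. Depth limits genes near 1 FPKM, and FPKM keeps no exact counts, so no counting intervals are given. Figures were drawn with matplotlib 3.10.9 (python 3.11.15). The comparison and the 54 gene lists were chosen with earlier results of these data known. Genes were named as the called or most extreme members of the lists, as those with the smallest p-values without overlap, or because the study names them; the held calls outside the lists were picked after their values were seen. Some genes are not reported here.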

Additional observations from a re-analysis of the deposited data

How the results depend on the processing

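On 6 libraries the calls were 0 in each direction also with other pseudocounts, filters, scalings, array weights, no trend, no fold change threshold or the length trend removed. In simulated data with the spread of these 6 libraries planted changes were not called either, so these counts say nothing about stability. They were 18 higher and 3 lower with the spread shared over 12 libraries. Leaving out single libraries gave 0 to 20 higher and 0 to 1106 lower calls. With ND replicates 2 and 3 the same settings gave 0, except the shared spread with 1174 and 884, and leaving out single libraries gave 0 to 194 and 0 to 2308. Combinations added after the data were seen, on the shared spread, gave 1386 and 886 with median-of-ratios scaling, 1595 and 856 with quantile normalization, 1161 and 674 with the length trend removed, and 1159 and 3536 without ND replicate 2, 207 and 66 without ND replicate 3, 262 and 76 without TJ replicate 1, 1232 and 536 without TJ replicate 2 and 1335 and 1401 without TJ replicate 3. The replicate numbers did not pair the samples, with correlations of same-numbered deviations of -0.066, -0.232 and 0.462, and the replicate block gave 0 calls on 6 and on 5 libraries and 551 and 316 on the shared spread. Of 88 log2 fold changes of named genes, over all ND libraries or over ND replicates 2 and 3, 4 reversed, all over ND replicates 2 and 3. The settings over ND replicates 2 and 3 never put ND replicate 1 back. Turns of direction with that library, such as that of Pde3b above, are therefore not in this count. Adipoq was -0.14 with quantile normalization and -0.03 to 0.58 without single libraries, lowest without ND replicate 3. Adrb3 was -0.33 with quantile normalization (-0.30 with the shared spread), -0.29 with array weights and -0.22 to 0.43 without single libraries, lowest without TJ replicate 2. Retn was -0.07 with quantile normalization (-0.10 with the shared spread), and Prkag3 was -0.10 to 0.57 without single libraries, turning without ND replicate 3. None of the 4 reversed genes was called, and the cause was not tested. Of the settings of 54 list medians, 103 moved by more than the spread between replicates and 1299 did not.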
